A study of Mus musculus with 6 samples.

Results

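The 10 genes described here encode the G1 cyclins Ccnd1, Ccnd2 and Ccnd3, the cyclin-dependent kinases Cdk2, Cdk4 and Cdk6, the kinase inhibitors Cdkn1b, Cdkn2c and Cdkn2d, and the retinoblastoma protein Rb1. They were chosen by symbol, through the GENCODE M21 annotation of the mm10 genome, and all 10 were found among the 55401 gene rows of the count table. RNA sequencing was carried out on cortex of C57BL/6 mouse embryos of embryonic day 18, with 3 wild-type libraries and 3 Csmd3-/- libraries. Both genotypes came from matings between heterozygous parents. The labels do not say which part of Csmd3, which encodes a membrane protein built from CUB and Sushi modules, was removed, and they do not say whether a library came from 1 embryo or from several. The p-values therefore measure the spread between these libraries, which may be technical.

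A cell passes from G1 into DNA replication when D-type cyclins, bound to CDK4 or CDK6, start to phosphorylate Rb1. Rb1 then releases the E2F factors, which switch on genes for replication, and CDK2 with its E-type cyclins carries the process on. Proteins of the INK4 class, such as those of Cdkn2c and Cdkn2d, bind CDK4 and CDK6 directly, and the Cip/Kip protein p27, made from Cdkn1b, binds cyclin-CDK complexes and is known to rise as neurons leave the cycle. In the embryonic cortex cyclin D2 is known as a D-type cyclin of dividing progenitors. Most cells of the cortex at this stage are neurons that no longer divide.

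Deposited totals lay between 54244288 and 68269607 counts per library. Levels are given as CPM, deposited counts scaled to library size with TMM factors, and changes as log2 fold changes of knockout minus wild type with their standard error (SE) from edgeR. A gene is said to rise or fall where the p adjusted over all 19844 tested genes was below 0.05. Csmd3 itself had 992, 765 and 867 deposited counts in wild type against 675, 653 and 543 in knockout (log2 fold change -0.59, SE 0.13, edgeR adjusted p = 0.0233). Reads of the whole gene enter this value, which checks the genotype labels only weakly. Xist had 10817, 77043 and 115703 counts in wild-type libraries 1 to 3, and 3875, 123157 and 634 in knockout libraries 1 to 3. In the same order, 4 Y-linked genes had 8976, 1879 and 1 counts in wild type, and 12749, 2433 and 9959 in knockout. The libraries therefore differed in their mixture of sexes, which was not balanced between the genotypes.

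All 10 genes were tested. Of them 3 rose in knockout, Ccnd2, Cdk2 and Ccnd1, and 0 fell. Among all tested genes 5.21% rose and 2.53% fell. The log2 fold change was above 0 for 9 of the 10, with a median of 0.40, and for 50.3% of all tested genes, whose median was 0.002. The knockout libraries all lay on one side of the wild-type libraries for 7 of the 10, which held for 29.1% of all tested genes. These 7 were the 3 cyclins, the 3 kinases and Rb1, all higher in knockout, while all 3 inhibitors had overlapping groups. DESeq2 called 5 of the 10 higher, adding Ccnd3 and Cdk6, and 6.29% of all genes it tested.

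**Figure D1:**
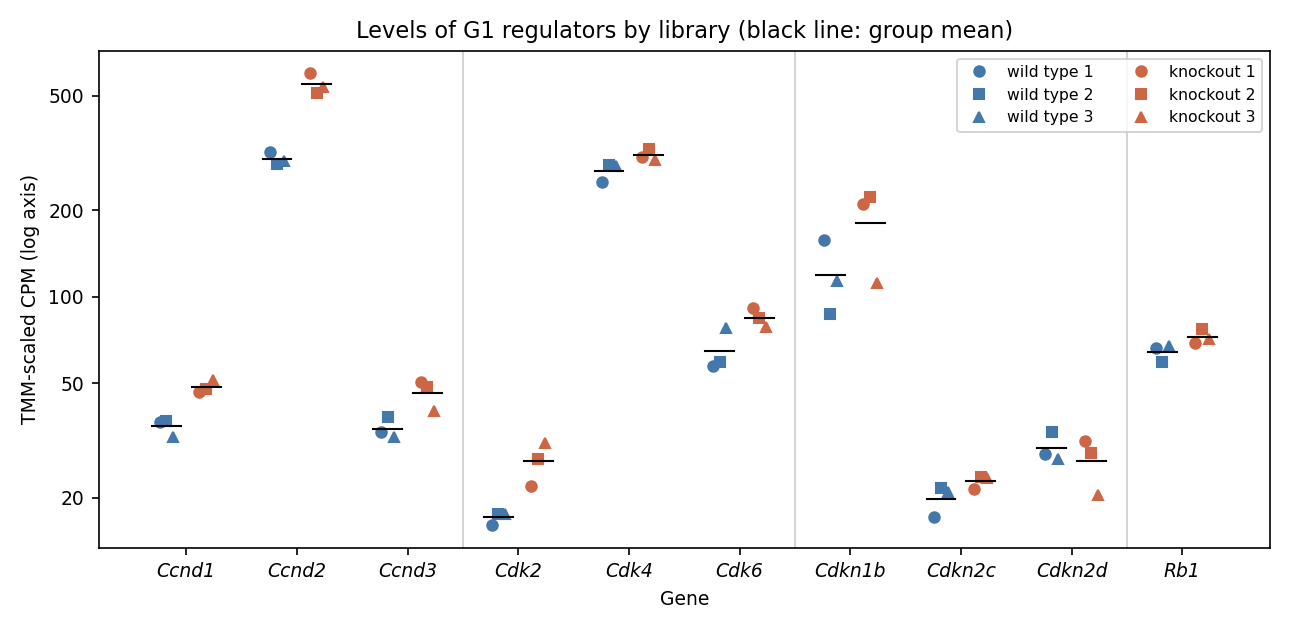
Level of each of the 10 genes in each library, as TMM-scaled CPM on a log axis. Symbols are the 3 libraries of each genotype, black lines are group means, and vertical lines separate cyclins, kinases, inhibitors and Rb1. Ccnd2 shows a wide gap between the groups, and Cdkn1b the widest scatter within them.

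Of the cyclins, Ccnd2 (chromosome 6, 127125162 to 127152193, minus strand, mm10) had the largest change by value. Its level was 320.3, 289.7 and 296 CPM in the wild-type libraries and 599, 513 and 539 CPM in the knockout libraries. Every knockout library lay far above the highest wild-type library. The fold was 1.82, a log2 fold change of 0.87 (SE 0.08, edgeR adjusted p = 0.00024), which placed Ccnd2 81st by p among all tested genes. This call held in all 17 alternative analyses, with values from 0.80 to 0.998 on the log2 scale.

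Ccnd1, the gene of cyclin D1 (chromosome 7, 144929931 to 144939925, minus strand), also rose. It had 36.6, 37.1 and 32.5 CPM in wild type against 46.6, 47.6 and 51.4 CPM in knockout. The groups did not overlap, and both varied little among themselves, which gave a log2 fold change of 0.46 (SE 0.09, edgeR adjusted p = 0.0149). Without knockout library 3 the call was lost (0.42, adjusted p = 0.0762).

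Ccnd3, the gene of cyclin D3 (chromosome 17, 47505051 to 47599691, plus strand), had a similar value but narrowly missed the threshold. Its level was 33.7, 38.2 and 32.5 CPM in wild type against 50.4, 48.3 and 40.0 CPM in knockout. Knockout library 3 was the lowest of its group and came close to wild-type library 2. At a log2 fold change of 0.41 (SE 0.11, edgeR adjusted p = 0.0529) it did not pass, and 7 of 17 alternatives put it past the threshold, with adjusted p from 0.0182 to 0.0498.

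The make-up of the D-type cyclins was compared as shares within each library. Divided by exon length, Ccnd2 held 74.6%, 71.6% and 74.8% of the summed level of the 3 cyclin genes in wild type. In knockout it held 80.3%, 77.7% and 78.7%, so the groups did not overlap. The mean share went from 73.7% ± 1.79 to 78.9% ± 1.29 (SD, n = 3; exact two-sided permutation p = 0.1). That of Ccnd1 was 17.2% ± 0.973 in wild type and 14.0% ± 1.32 in knockout, and that of Ccnd3 was 9.10% ± 0.892 and 7.12% ± 0.803 (SD, n = 3; exact permutation p = 0.1 for each). With 3 libraries against 3 this test cannot give less than 0.1, so no share could pass a threshold of 0.05. A share within a library does not depend on scaling between libraries.

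**Figure D2:**
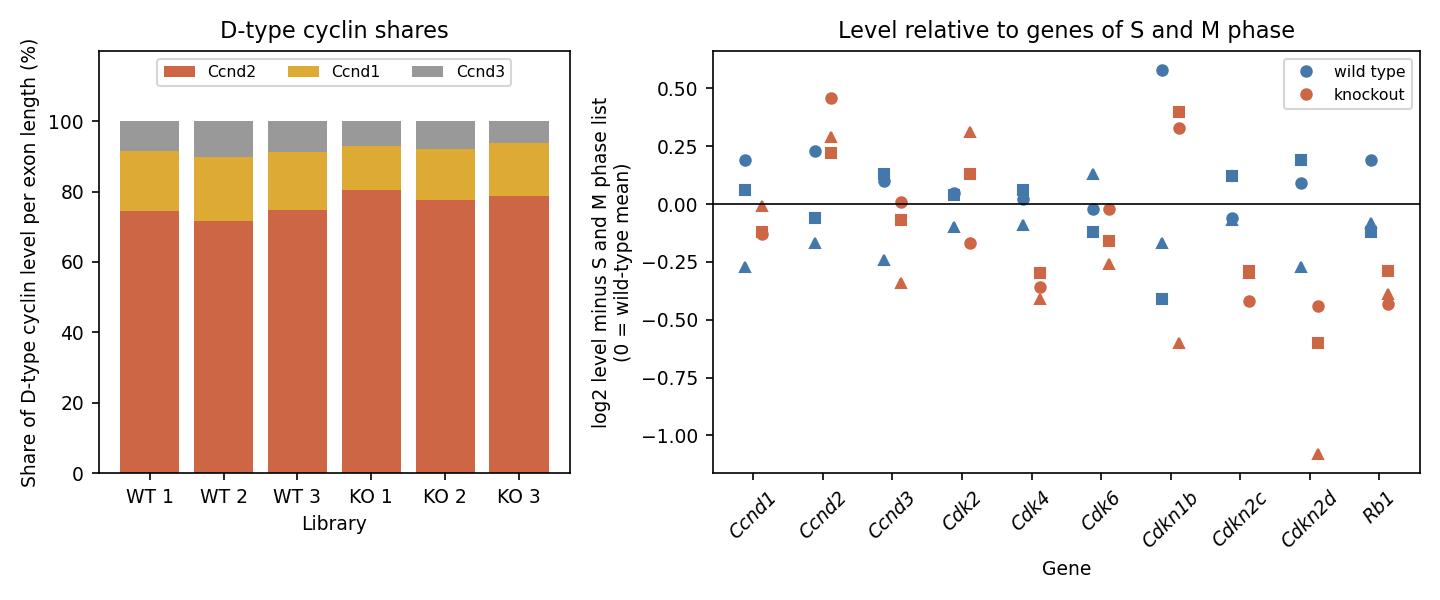
Left, share in percent of each D-type cyclin in their summed level per exon length, by library (WT, wild type; KO, knockout). Right, log2 level of each gene minus the mean log2 level of 30 genes of S and M phase in the same library, set to 0 at the wild-type mean; points are libraries. Ccnd2 takes 77.7% to 80.3% of D-type cyclin level in knockout. Cdk4, Cdkn2c, Cdkn2d and Rb1 lie lower relative to the S and M phase genes in all 3 knockout libraries. The mean of those S and M phase genes was itself 0.54 higher in knockout.

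Of the kinases only Cdk2, which works at the entry into S phase, passed the test (chromosome 10, 128697939 to 128705031, minus strand). It had 16.0, 17.6 and 17.6 CPM in wild type against 21.96, 27.3 and 31.0 CPM in knockout. All knockout libraries were higher, but they differed among themselves by more than the wild-type ones. This was a log2 fold change of 0.65 (SE 0.14, edgeR adjusted p = 0.0199). Leaving out either of wild-type libraries 1 and 2, or either of knockout libraries 2 and 3, ended the call, with values of 0.53 to 0.67 and a highest adjusted p of 0.0917.

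Cdk4 (chromosome 10, 127063534 to 127067920, plus strand), the more abundant of the kinases that D-type cyclins bind, had 251, 286 and 284 CPM in wild type against 308, 326 and 300.1 CPM in knockout. The groups did not overlap but lay close together, with a log2 fold change of 0.18 (SE 0.07, edgeR adjusted p = 0.178) that was 0.11 without wild-type library 1. Cdk6, its close relative (chromosome 5, 3341485 to 3531008, plus strand), had 57.5, 59.2 and 77.9 CPM in wild type against 91.2, 84.2 and 78.4 CPM in knockout. Wild-type library 3 nearly reached the lowest knockout library. The log2 fold change was 0.38 (SE 0.12, edgeR adjusted p = 0.093), and without wild-type library 3 it was 0.54 and passed (adjusted p = 0.00719). Per exon length Cdk6 made up 5.20% ± 0.715 of the sum of Cdk4 and Cdk6 in wild type and 5.94% ± 0.435 in knockout (SD, n = 3; exact two-sided permutation p = 0.3). These ranges overlapped.

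The promoters of Cdk2, which rose, and Cdk4, which did not pass, are shown to set 2 kinase genes of chromosome 10 beside each other. Each window runs from 250 bases before to 50 after the start of the gene, 5′ to 3′ on the gene's strand, from RefSeq on GRCm38.p6. Capitals mark the E2F words TTTGGCGC, TTTCCCGC, TTTCGCGC and TTTGCCGC and the GC box GGGCGG, searched on both strands, and GC boxes that share bases are joined.
Cdk2, chr10:128705002-128705301, minus strand: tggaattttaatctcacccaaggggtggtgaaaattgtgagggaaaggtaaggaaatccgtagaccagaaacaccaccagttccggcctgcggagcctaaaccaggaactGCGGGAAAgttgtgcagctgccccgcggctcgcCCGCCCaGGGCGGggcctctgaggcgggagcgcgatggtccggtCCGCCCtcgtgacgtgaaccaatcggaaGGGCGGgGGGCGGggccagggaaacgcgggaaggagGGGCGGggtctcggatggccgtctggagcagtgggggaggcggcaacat
Cdk4, chr10:127063285-127063584, plus strand: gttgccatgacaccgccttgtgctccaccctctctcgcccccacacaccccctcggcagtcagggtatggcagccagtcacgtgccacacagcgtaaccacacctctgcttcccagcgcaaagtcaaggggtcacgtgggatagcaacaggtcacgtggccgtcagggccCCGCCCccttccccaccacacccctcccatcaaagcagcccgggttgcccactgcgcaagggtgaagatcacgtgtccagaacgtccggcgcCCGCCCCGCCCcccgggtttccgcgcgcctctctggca
Cdk2 holds 1 E2F word, which reads GCGGGAAA on this strand, and 6 GC boxes, and Cdk4 holds 3 GC boxes and 0 E2F words. Of the 10 genes 7 had a window in the table, 9 windows in all, and Ccnd1, Ccnd2 and Rb1 had none. An E2F word stood in 1 of the 9, that of Cdk2, and in 2.26% of all 32851 windows of 300 bases. A GC box stood in 7 of the 9, belonging to 6 genes, and in 35.7% of all windows. A match is a description of the letters, and no binding was measured here.

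None of the 3 inhibitors passed the test, and their values lay on both sides of 0. Cdkn1b (chromosome 6, 134920401 to 134925513, plus strand) had 157, 87.2 and 114 CPM in wild type against 209.6, 223 and 112 CPM in knockout. Knockout library 3 lay below wild-type libraries 1 and 3, and the other two knockout libraries were the highest of all. The log2 fold change of 0.60 had an SE of 0.37 (edgeR adjusted p = 0.437). With a spread of 29.6% of the mean in wild type and 33.5% in knockout, Cdkn1b was the most variable of the 10 genes.

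The INK4 genes had values of opposite sign. Cdkn2c, which encodes p18 (chromosome 4, 109660876 to 109667189, minus strand), had 17.1, 21.6 and 20.8 CPM in wild type against 21.3, 23.5 and 23.4 CPM in knockout, a small difference (log2 fold change 0.20, SE 0.12, edgeR adjusted p = 0.381). Only wild-type library 1 stood clearly below the others, and without it the value was 0.09. Cdkn2d, which encodes p19 (chromosome 9, 21288410 to 21291407, minus strand), was the only gene of the 10 with a value below 0. Its level was 28.5, 33.7 and 27.2 CPM in wild type against 31.5, 28.5 and 20.4 CPM in knockout. Knockout library 3 was the lowest and the other two lay within the wild-type range. The log2 fold change was -0.15 (SE 0.16, edgeR adjusted p = 0.655), and it was 0.01 without knockout library 3.

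The last gene, Rb1, the target of the D-type cyclin kinases (chromosome 14, 73183673 to 73325822, minus strand), had 66.4, 59.1 and 67.2 CPM in wild type against 68.8, 76.95 and 71.5 CPM in knockout. The groups did not overlap but were nearly contiguous, at a log2 fold change of 0.17 (SE 0.08, edgeR adjusted p = 0.262).

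**Figure D3:**
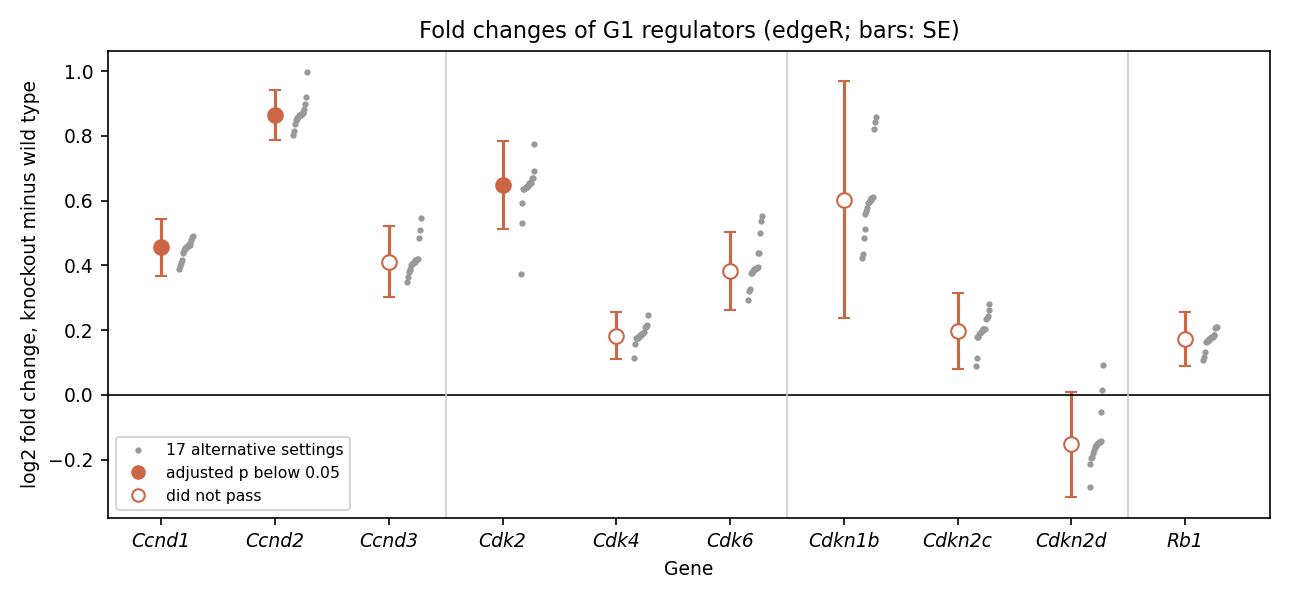
Log2 fold change of knockout minus wild type for each of the 10 genes, with the SE as bars; filled circles passed an edgeR adjusted p of 0.05. Grey dots are the 17 alternative analyses. Ccnd2 stays between 0.80 and 0.998, and Cdkn2d lies on both sides of 0.

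Levels per length of the union of exons put the genes in the same order of means in both genotypes. In wild type Cdk4 was highest at 84.3 ± 6.12 CPM per kb, followed by Ccnd2 at 32.1 ± 1.71, Cdkn1b at 26.2 ± 7.77, Cdkn2d at 18.9 ± 2.20 and Rb1 at 10.7 ± 0.744 (SD, n = 3). Lower levels were those of Ccnd1 at 7.51 ± 0.538 CPM per kb, Cdkn2c at 7.39 ± 0.890, Cdk6 at 4.64 ± 0.812, Ccnd3 at 3.96 ± 0.341 and Cdk2 at 2.74 ± 0.145. In wild type the libraries of neighbours overlapped for Ccnd2 and Cdkn1b, Cdkn1b and Cdkn2d, Ccnd1 and Cdkn2c, and Cdk6 and Ccnd3, so these pairs are not ordered beyond their spread. In knockout they overlapped for Cdk6 and Ccnd3 and for Ccnd3 and Cdk2. In knockout Ccnd2 stood at 58.5 ± 4.72 CPM per kb and Cdk4 at 95.7 ± 4.03. With the longest transcript as the length, the order of the first 6 was kept and Ccnd3 moved up to the seventh place in both genotypes, but Cdk6 then stood above Cdk2 in wild type and below it in knockout, with overlapping libraries in each.

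The genes were next set against 30 genes of S and M phase, which mark cells that replicate DNA or divide. Of these 18 rose and 0 fell (median log2 fold change 0.58), against 5.21% and 2.53% of all tested genes. The largest values were those of Hmmr (0.99, SE 0.16), the spindle checkpoint kinase gene Bub1 (0.81, SE 0.14) and the mitotic kinesin gene Cenpe (0.79, SE 0.11). They were followed by the kinesin gene Kif20a (0.77, SE 0.10), the proliferation marker Mki67 (0.72, SE 0.08) and the kinesin gene Kif11 (0.69, SE 0.12). Without both knockout libraries 2 and 3 none of the 30 passed, with a median of 0.55, and without wild-type library 2 or knockout library 3 the count was 11. Their mean log2 level was 5.0 ± 0.14 in wild type and 5.54 ± 0.01 in knockout (SD, n = 3).

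Within each library, the log2 level of each of the 10 genes was taken minus this mean. Ccnd2 lay 3.47, 3.18 and 3.07 above the list in wild type and 3.70, 3.46 and 3.53 above it in knockout. The difference between genotypes was 0.33 and the ranges overlapped slightly (exact two-sided permutation p = 0.2). Relative to the list, Ccnd1, Ccnd3, Cdk2, Cdk6 and Cdkn1b differed by -0.14 to 0.10, with overlapping ranges (exact permutation p from 0.2 to 1). With single libraries left out these 5 differences lay between -0.25 (Ccnd3, without wild-type library 3) and 0.36 (Cdkn1b, without knockout library 3). Cdkn1b was at 0.33 without wild-type library 1 and at -0.16 without wild-type library 2, so its sign rested on single libraries, and the sign also changed for Ccnd1 (0.02 without wild-type library 1) and Cdk2 (-0.01 when knockout library 3 was omitted).

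The other 4 genes were lower relative to the list in all 3 knockout libraries. The difference was -0.35 for Cdk4, -0.34 for Cdkn2c, -0.71 for Cdkn2d and -0.36 for Rb1 (exact permutation p = 0.1 for each, the smallest that 3 libraries against 3 allow). Cdkn2d lay at -0.02, 0.08 and -0.38 in wild type, against -0.55, -0.71 and -1.19 in knockout. In CPM alone, 3 of these 4 had a log2 fold change slightly above 0. The mean of the list was itself 0.54 higher in knockout, so any gene that changed little lies lower against it. In all, 14 comparisons of this exact kind were made, 10 against the list and 4 of shares, and none could pass a threshold of 0.05.

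Other genes of the passage from G1 to S were described from a list of 29, of which 27 were tested. Of these 6 rose and 1 fell (median log2 fold change 0.24), against 5.21% and 2.53% of all tested genes. Groups did not overlap, in either direction, for 17, against 29.1% of all tested genes. Among the 17, Cdkn1a, Rbl2 and Myc were lower in knockout. The E2F partner gene Tfdp2 rose most, from 8.27 ± 1.22 to 16.8 ± 2.77 CPM (SD, n = 3; log2 fold change 1.02, SE 0.17, edgeR adjusted p = 0.0065). Rbl1, the Rb1 relative p107, rose by 0.73 on the log2 scale (SE 0.15). The activator E2f2 rose by 0.73 (SE 0.15), and the repressors E2f7 and E2f8 each rose by 0.64 (SE 0.10 and 0.15). Ccna2, the cyclin of S and G2 phase, rose by 0.52 (SE 0.09).

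The gene that fell was Myc, a growth factor-responsive activator of Ccnd2 and Cdk4 in other settings, at 23.3 ± 0.25 CPM in wild type and 14.8 ± 0.723 in knockout (SD, n = 3; log2 fold change -0.66, SE 0.10, edgeR adjusted p = 0.00486). Its relative Mycn, the form abundant in neural progenitors, had 0.22 (SE 0.29, edgeR adjusted p = 0.738). The E-type cyclins, partners of Cdk2, did not pass: Ccne1 had 0.45 (SE 0.20) and Ccne2 0.63 (SE 0.17, edgeR adjusted p = 0.0595). Of the inhibitors outside the 10, Cdkn1a had -0.22 (SE 0.14) and Cdkn1c 0.38 (SE 0.11, edgeR adjusted p = 0.0621). Cdkn2a and Cdkn2b, the other INK4 genes, had at most 19 deposited counts in any library and were not tested. The count of 6 became 3 when any library but wild-type 3 was left out, and 0 without both knockout libraries 2 and 3.

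**Figure D4:**
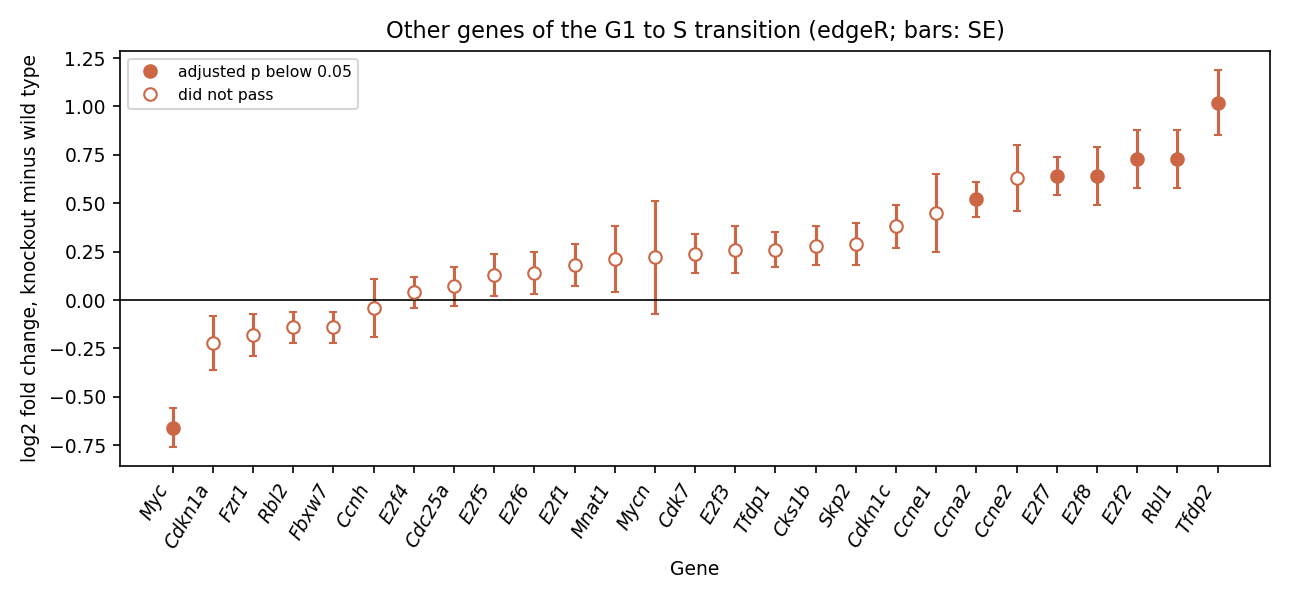
Log2 fold change of knockout minus wild type for 27 further genes of the G1 to S transition, ordered by value, with the SE as bars; filled circles passed an edgeR adjusted p of 0.05. Tfdp2 is highest at 1.02 and Myc lowest at -0.66.

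Markers of several cell types moved between the genotypes as well. In bulk tissue, more cells of a type and more RNA per cell cannot be told apart. For comparison with the counts of each list below, 5.21% of all tested genes rose and 2.53% fell. Neuronal genes were abundant, with the neuronal tubulin gene Tubb3 at 3090 ± 336 CPM in wild type against 2310 ± 106 CPM in knockout (SD, n = 3). Of 15 neuronal genes 6 fell and 0 rose, and the 6 were Tubb3, Stmn2, which encodes a tubulin-binding protein of growing axons (log2 fold change -0.29, SE 0.06), Cux2, Syt1, Nefl and Nefm. Of 8 genes of intermediate progenitors 3 rose (Btg2, Tfap2c and Neurog2), with a median log2 fold change of 0.61. Groups did not overlap for all 8, which held for 29.1% of all tested genes. Of 10 radial glia genes 3 rose (Notch1, Pax6 and Nes), with a median of 0.10. The log2 fold change was above 0 for 6 of these 10. Fabp7 was lower in all 3 knockout libraries but did not pass (-0.29, SE 0.09, edgeR adjusted p = 0.0791). DESeq2 called 4 of these 10 higher and 1 lower. Of 7 genes of the ventral forebrain and 6 erythroid genes 0 passed, and of 6 genes of the oligodendrocyte lineage 1 rose and 3 fell. Without both knockout libraries 2 and 3 none of the progenitor and neuronal genes passed.

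All 13 meningeal genes rose (12 without both knockout libraries 2 and 3), and their summed level was 35.2 to 43.7 CPM in wild type and 573 to 763 CPM in knockout, led by the collagen genes Col3a1 and Col1a2 (log2 fold changes 5.06 and 5.08). Of 12 endothelial genes 8 rose (196 to 237 against 354 to 458.5 CPM), of 6 mural genes 4 (129.7 to 139.7 against 231 to 264 CPM) and of 11 genes of microglia and macrophages 9 (34.8 to 39.9 against 118.5 to 148 CPM). In the last list the mean went from 0.79 CPM in wild type to 25.3 CPM in knockout for Mrc1, and from 0.475 to 23.6 CPM for F13a1. Csf1r and Cx3cr1 rose by 1.28 (SE 0.13) and 0.71 (SE 0.16) on the log2 scale. P2ry12 (0.22, SE 0.21) and Aif1 (0.77, SE 0.39) did not pass. Of 6 tested choroid plexus genes 2 rose, and the 8 listed ones summed to 6.53 to 7.89 CPM in wild type and 33.3 to 516 CPM in knockout, most in knockout library 3. Of them Folr1 had 0 counts in wild type, and no other marker on these lists was at 0 in a whole group. D-type cyclins are also expressed by dividing cells of meninges and vessels, and the part of these cells in the values of the 10 genes was not tested. Without both knockout libraries 2 and 3, which held the most choroid plexus counts, the log2 fold change was 0.998 for Ccnd2, 0.41 for Ccnd1 and 0.37 for Cdk2. That fit assumes that the lone knockout library varied like the wild-type ones. The library it kept, knockout library 1, was not low in meningeal genes. Col1a2 had 200 CPM there against 151 and 173 CPM in knockout libraries 2 and 3, and Col3a1 187 against 157 and 193 CPM. Knockout library 1 had the highest Ccnd2 level of its group (599 against 513 and 539 CPM). It had the lowest level of its group for Ccnd1 (46.6 against 47.6 and 51.4 CPM) and for Cdk2 (21.96 against 27.3 and 31.0 CPM).

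**Figure D5:**
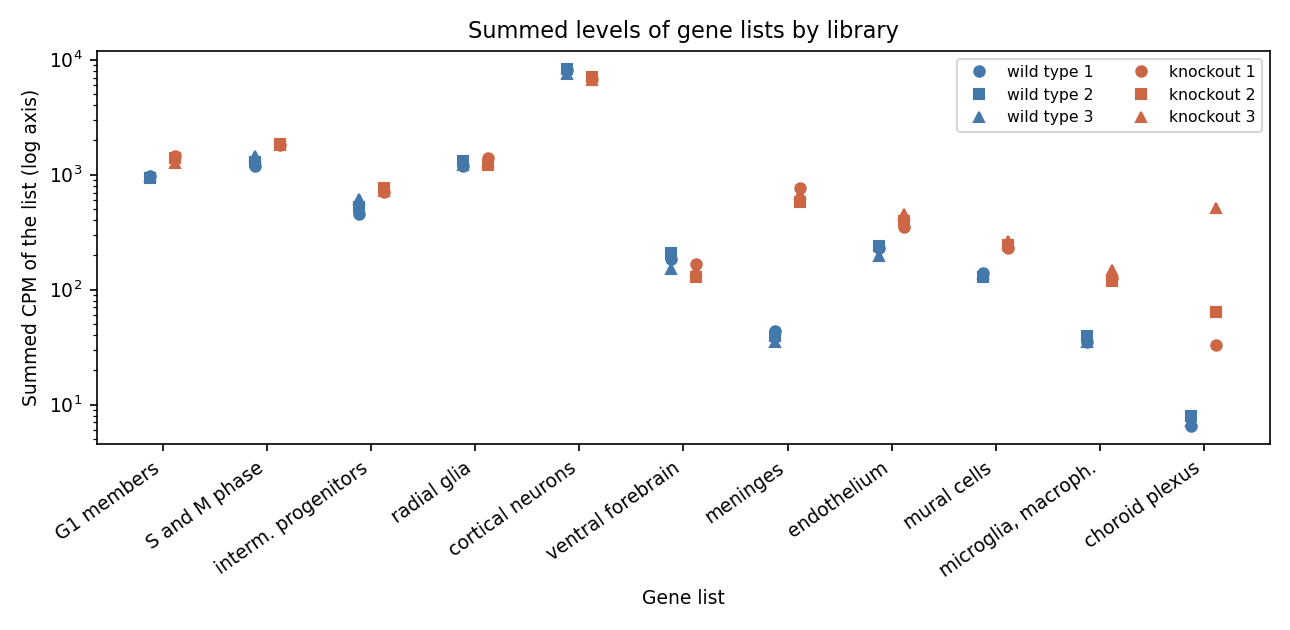
Summed TMM-scaled CPM of each gene list in each library, on a log axis; symbols are libraries. The sums of the 10 G1 genes, the S and M phase genes and the intermediate progenitor genes are higher in all 3 knockout libraries. So are the sums of the meningeal, vascular, macrophage and choroid plexus lists. In knockout library 1 the choroid plexus sum was mostly Enpp2 (23.8 CPM) and Aqp1 (6.80 CPM), and Folr1, Kcne2 and Otx2 had 0 counts.

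Over the 6 libraries, the non-member genes whose log2 CPM followed that of Ccnd2 most closely were Tgfbr3 (Pearson r = 0.9994), Egflam (0.9989) and Gja1 (0.9988). They were picked as the 3 highest of all tested genes, so the size of r is a description. All 3 rose in knockout, by 3.22 (SE 0.24), 2.14 (SE 0.18) and 3.33 (SE 0.26) on the log2 scale. Genes picked for following Ccnd2, whose groups lay far apart, had to differ in the same direction, so this rise is no separate result.

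Most of the 10 genes share exon sequence with a gene on the opposite strand, and the sources used here do not say whether counting used strand. The partners' values were as follows. LTO1 opposite Ccnd1 had a log2 fold change of -0.02 (SE 0.10), Bysl opposite Ccnd3 -0.23 (SE 0.11), Tspan31 opposite Cdk4 0.01 (SE 0.12) and Rcbtb2 opposite Rb1 -0.08 (SE 0.11). Lpar6, which lies opposite Rb1, rose by 1.07 (SE 0.18), at 138 to 399 deposited counts a library against 3429 to 4870 for Rb1. The antisense genes opposite Ccnd2 and Cdk6 held at most 22 counts in any library, and Pmel opposite Cdk2 at most 15. Ccnd3 also has an annotated processed pseudogene, Ccnd3-ps, with 0 to 14 counts a library.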

How the data were processed

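RNA sequencing counts came from cortex of 3 wild-type and 3 Csmd3-/- embryonic day 18 libraries. Per the submitters' processing notes, the genome build was mm10 and the tools were StringTie 1.3.4, HISAT2 2.0.5, Trim Galore 0.4.4 and FastQC 0.11.9, with no roles. No source used here names the program that made the deposited estimated counts. They are whole numbers, but 1233 to 1347 genes per library had a count of 4 against 430 to 502 with 3, so a deposited count is not 1 fragment, and precision is lower than totals of 54244288 to 68269607 imply. Of 55401 identifiers 55141 matched GENCODE M21.

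Genes kept by filterByExpr were scaled by TMM and compared with the robust quasi-likelihood F-test of edgeR 4.0.16 (R 4.3.3), Benjamini-Hochberg adjusted over 19844 genes. The SE is the absolute log2 fold change over the square root of F. Lengths are unions of annotated exons. Log2 levels use a prior count of 2. Alternatives were other scalings and filters, DESeq2 1.42.0, limma-voom (limma 3.58.1), counts divided by 4, a replicate block, and libraries left out; a covariate of Y-linked counts, and the counts of both other cell cycle lists under all settings, were added after seeing the data.

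The members and lists were chosen with earlier results of these data known. The text names all 10 members, Csmd3, up to 6 genes past the threshold by size from each cell cycle or progenitor list, from the other lists genes at 0 in a group and, for neurons and meninges, the 2 of highest mean level, and the 3 genes most like the member of smallest p. Further genes of the G1 list (the E-type cyclins, other inhibitors and Mycn) are named for their role. Ccna2 and the other neuronal genes that fell are named to complete their counts. Genes of the macrophage and choroid plexus lists are named to show what their sums held, and Rbl2 and Fabp7 for their direction. All of these were named with their values already seen.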

Additional observations from a re-analysis of the deposited data

How the results depend on the processing

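Ccnd2 was called in all 17 alternatives, and 0 members were lower in any. The count of 3 higher members became 5 with DESeq2 and 5 with limma-voom, 1 without both knockout libraries 2 and 3, and 2 to 4 with single libraries left out. Cdkn2d lay between -0.28 (without knockout library 1) and 0.01 (without knockout library 3) with single libraries left out, and changed sign there and without both knockout libraries 2 and 3 (0.09). Same-numbered libraries did not deviate together (r = 0.028, -0.003 and 0.002 for numbers 1, 2 and 3), so the numbers were not taken as pairs; with a replicate block 2 members were higher, Ccnd1 being at 0.46 (adjusted p = 0.0531), and over all genes 686 were higher and 255 lower. Over all genes the 1033 higher and 503 lower became 262 and 43 without both knockout libraries 2 and 3, 472 to 1402 and 137 to 956 with single libraries left out. DESeq2 gave 792 lower and the Y-linked covariate 794; with that covariate Cdk6 passed (0.55, adjusted p = 0.0155). Without both knockout libraries 2 and 3, 0 of the other G1 genes were higher and 0 lower, and 0 of the S and M phase genes were higher; with single libraries left out these were 3 to 9 higher, 1 to 1 lower and 11 to 25 higher. The share difference of Ccnd3 was -2.91 percentage points with the longest transcript, against -1.98. Fewer samples enter the fits that leave libraries out; the cause of the other differences was not tested. Low counts limit Cdkn2a and Cdkn2b.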
